A study of Mus musculus with 36 samples.

Results

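The regions described here are very wide domains of K27me3, stretches of mouse pancreas chromatin of 30 kb or more that carried trimethylated lysine 27 of histone H3. In each of 12 K27me3 peak lists, 1 per mouse, autosomal peaks separated by less than 3 kb were joined and the joined domains of at least 30 kb were kept. The union over the 12 lists, merged where domains overlapped, gave 2358 wide domains out of 38901 merged K27me3 domains of any width. They covered 128 Mb, or 5.34% of the 2396 Mb of autosomal sequence outside assembly gaps. They were thus chosen by their K27me3 width in these same lists, so K27me3 width, presence and cover are given below as descriptions without a test. Of the 8205 domains of single mice that passed the threshold, the narrowest were 30000, 30001 and 30001 bp. The widest of the 201318 that failed it were 29999, 29998 and 29997 bp, and 654 domains lay within 1 kb above the threshold against 665 within 1 kb below it.

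The tissue was whole pancreas of mice aged 2 to 4 months, taken 22 days after tamoxifen gavage, with 3 mice per genotype. Control mice (WT) are labelled wildtype, and the study's methods describe such controls as C57BL/6 mice or mice carrying the Cre driver alone. EZ mice carried Mist1creERT/+ and EZH2[delta]SET, in which loxP sites flank the exons that encode the catalytic SET domain of the methyltransferase EZH2. KR mice carried Mist1creERT/+ and a further allele that Cre switches on, and KE mice carried Mist1creERT/+, that allele and the EZH2 deletion together. Mist1creERT is a tamoxifen-activated Cre placed in the Mist1 locus, so those 3 genotypes, and any control with the driver, also lack 1 Mist1 copy, and recombination is limited to acinar cells while islet, duct, stromal and blood cells of the same tissue keep intact Ezh2. K4me3 peaks, which mark active or poised gene starts, were listed for a sample of the same genotype and label number. Of 27 acinar enzyme and acinar factor genes, 24 had a K4me3 peak within 3 kb of their start in all 12 mice, against 55.1% of all autosomal protein-coding genes.

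K27me3 is written by Polycomb repressive complex 2, whose catalytic subunit is EZH2 or its relative EZH1. At genes that specify other lineages, above all the Hox clusters and other developmental transcription factors, it spreads over long stretches and is bound by Polycomb repressive complex 1. In mammals its nucleation sites are mostly CpG islands, unmethylated stretches rich in the dinucleotide CG. Broad K27me3 over gene clusters with few CpGs, such as those of the olfactory receptors, and over stretches without genes has also been described in differentiated tissues.

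Several libraries stood apart. The K27me3 list of WT replicate 2 (WT2) had the fewest autosomal peaks of all 12, 15782 against 18455 to 29041, yet 801 wide domains, and 58.6% of these held the start of a protein-coding gene against 26.0% to 51.0% in the other mice. The lists of KR1, KR2, KR3 and EZ2 held 35, 10, 12 and 17 K27me3 peaks on the X chromosome, whereas the other 8 held 5637 to 7367. EZ2, KR3 and KR2 were also the mice with the most autosomal K27me3, 226, 224 and 218 Mb, against 136 to 187 Mb in the other 9. Since all 3 KR mice had almost no X peaks, KR genotype and this state of the library cannot be told apart. The study's methods report mice of both sexes in each genotype, but the labels do not give the sex of a mouse. The lists give positions without counts or signal, so the depth of each library is unknown and could alter every width and number below.

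The domains held very different kinds of sequence, which the following 9 stretches of 250 bases show. Each is written 5′ to 3′ on the strand named, from the mouse build GRCm38.p6 (mm10), with every CG dinucleotide in capitals, because CpG content differed between the classes of domain described further on. The first 7 are the bases just before a RefSeq gene start, taken from RefSeq promoter entries, which matched 990 of the 1368 gene symbols in the domains. Hoxd13, a limb and genital patterning factor (chr2:74667975-74668224, plus strand), and Six6, an eye and pituitary factor (chr12:72939632-72939881, plus strand), had K27me3 over their starts in all 12 mice and K4me3 in none. Cdkn2b, which encodes the cell cycle inhibitor p15 (chr4:89311033-89311282, minus strand), and Foxd2, a forkhead factor (chr4:114908899-114909148, minus strand), had K4me3 near their starts in all 12 mice. Ptf1a, the master regulator of acinar cells (chr2:19445413-19445662, plus strand), lay in a wide domain in WT2 alone. Olfr20 (chr11:73350609-73350858, plus strand) and Olfr382 (chr11:73517198-73517447, minus strand) are olfactory receptors of the widest domain. The last 2 stretches are the CpG-richest windows of the widest domains that were present in all 12 mice and held no protein-coding start, on chromosome 19 (chr19:9216300-9216549, plus strand) and chromosome 10 (chr10:98550620-98550869, plus strand).
Hoxd13: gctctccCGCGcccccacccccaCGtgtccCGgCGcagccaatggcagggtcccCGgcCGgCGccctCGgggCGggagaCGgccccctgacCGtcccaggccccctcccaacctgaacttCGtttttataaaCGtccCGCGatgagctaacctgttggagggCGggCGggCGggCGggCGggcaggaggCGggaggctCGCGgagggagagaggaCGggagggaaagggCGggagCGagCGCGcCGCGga
Six6: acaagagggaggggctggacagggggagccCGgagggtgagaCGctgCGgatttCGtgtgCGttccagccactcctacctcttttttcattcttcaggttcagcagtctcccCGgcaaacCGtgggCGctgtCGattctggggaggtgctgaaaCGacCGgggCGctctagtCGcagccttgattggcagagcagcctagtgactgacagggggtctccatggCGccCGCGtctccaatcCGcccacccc
Cdkn2b: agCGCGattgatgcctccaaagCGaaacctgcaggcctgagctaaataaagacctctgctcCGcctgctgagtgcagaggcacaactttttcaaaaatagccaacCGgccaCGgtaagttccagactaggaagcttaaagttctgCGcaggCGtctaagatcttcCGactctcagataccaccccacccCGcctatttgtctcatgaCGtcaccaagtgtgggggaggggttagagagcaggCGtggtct
Foxd2: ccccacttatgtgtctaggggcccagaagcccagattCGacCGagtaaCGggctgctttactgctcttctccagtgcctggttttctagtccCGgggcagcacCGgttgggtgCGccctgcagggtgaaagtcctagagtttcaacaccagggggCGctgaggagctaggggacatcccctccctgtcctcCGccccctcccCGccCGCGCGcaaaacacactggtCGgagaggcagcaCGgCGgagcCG
Ptf1a: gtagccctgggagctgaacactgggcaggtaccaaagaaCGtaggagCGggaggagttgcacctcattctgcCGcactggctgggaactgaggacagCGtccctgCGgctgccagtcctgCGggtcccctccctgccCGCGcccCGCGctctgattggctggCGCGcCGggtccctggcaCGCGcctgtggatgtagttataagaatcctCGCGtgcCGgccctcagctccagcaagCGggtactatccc
Olfr20: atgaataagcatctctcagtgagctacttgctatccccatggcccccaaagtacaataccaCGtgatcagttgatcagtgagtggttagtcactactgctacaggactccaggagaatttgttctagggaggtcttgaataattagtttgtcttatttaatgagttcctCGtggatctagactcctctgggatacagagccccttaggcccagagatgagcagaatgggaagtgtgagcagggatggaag
Olfr382: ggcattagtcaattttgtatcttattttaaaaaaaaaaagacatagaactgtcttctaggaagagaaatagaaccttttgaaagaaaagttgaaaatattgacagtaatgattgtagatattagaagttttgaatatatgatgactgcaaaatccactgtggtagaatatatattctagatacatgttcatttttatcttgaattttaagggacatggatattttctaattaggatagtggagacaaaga
Chromosome 19 domain: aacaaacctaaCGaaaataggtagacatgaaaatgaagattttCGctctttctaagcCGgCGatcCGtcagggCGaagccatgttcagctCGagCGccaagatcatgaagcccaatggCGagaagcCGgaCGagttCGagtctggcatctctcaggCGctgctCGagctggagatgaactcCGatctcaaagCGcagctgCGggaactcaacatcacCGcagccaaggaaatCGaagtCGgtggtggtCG
Chromosome 10 domain: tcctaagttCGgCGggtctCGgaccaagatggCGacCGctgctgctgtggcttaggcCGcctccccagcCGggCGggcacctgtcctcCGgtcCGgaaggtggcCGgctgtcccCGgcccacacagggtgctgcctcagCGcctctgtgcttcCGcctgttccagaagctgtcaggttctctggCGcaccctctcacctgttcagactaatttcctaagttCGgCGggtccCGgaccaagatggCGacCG

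The 250 bases before Hoxd13 held 31 CpGs and those before Six6, Cdkn2b, Foxd2 and Ptf1a held 17, 12, 16 and 19, whereas Olfr20 had 2 and Olfr382 had 0. The median over the starts of all 20807 autosomal protein-coding genes of GENCODE vM21 was 8, and 5.49% of them had at least as many as Hoxd13. Such a count describes the window and says nothing of a factor bound there. In the gene-poor domains, the richest window on chromosome 19 held 21 CpGs and overlapped the antisense gene Gm9750 and an annotated processed pseudogene, AC121967.1. The richest window on chromosome 10 held 20 CpGs, lay inside the long noncoding RNA gene Gm34297 and was marked as interspersed or simple repeat over its whole length.

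Wide domains were mostly rare between mice, and those shared by many mice were wider and more often held genes. Of the 2358, 1061 (45.0%) reached 30 kb in 1 mouse only, 1297 did so in at least 2 mice, 104 in 11 or 12 mice and 47 in all 12. The 47 became 19 with a gap of 1 kb, 73 with 5 kb, 133 with a width of 20 kb and 11 with 50 kb. The median width was 42.2 kb (quartiles 34.2 and 59.7 kb), 166 domains reached 100 kb, and 26 reached 200 kb. Domains found in 1 mouse had a median width of 34.4 kb and 30.2% held a protein-coding start. Those found in all 12 had a median width of 121 kb and 72.3% held one. Widths of the union grow with the number of lists merged, so this relation is in part built into the rule. A wider domain also has more room for a gene start, so the share with a start depends on width. Domains of 1 mouse held 409 starts in 39.8 Mb and those of 2 mice 146 in 17.5 Mb. Those of 9 mice held 56 in 5.52 Mb, and those of all 12 held 132 in 7.32 Mb. The 1061 domains of a single mouse were shared out unequally, with 357 in WT2, 122 in EZ2, 101 in KR3, 95 in KR2 and 83 in WT1, and between 8 and 76 in each of the other 7 mice. Of the 357 of WT2, 57.7% held a protein-coding start and 35.0% held K4me3 in all 12 mice, whereas of the 704 of the other mice 16.2% and 1.56% did.

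**Figure D1:**
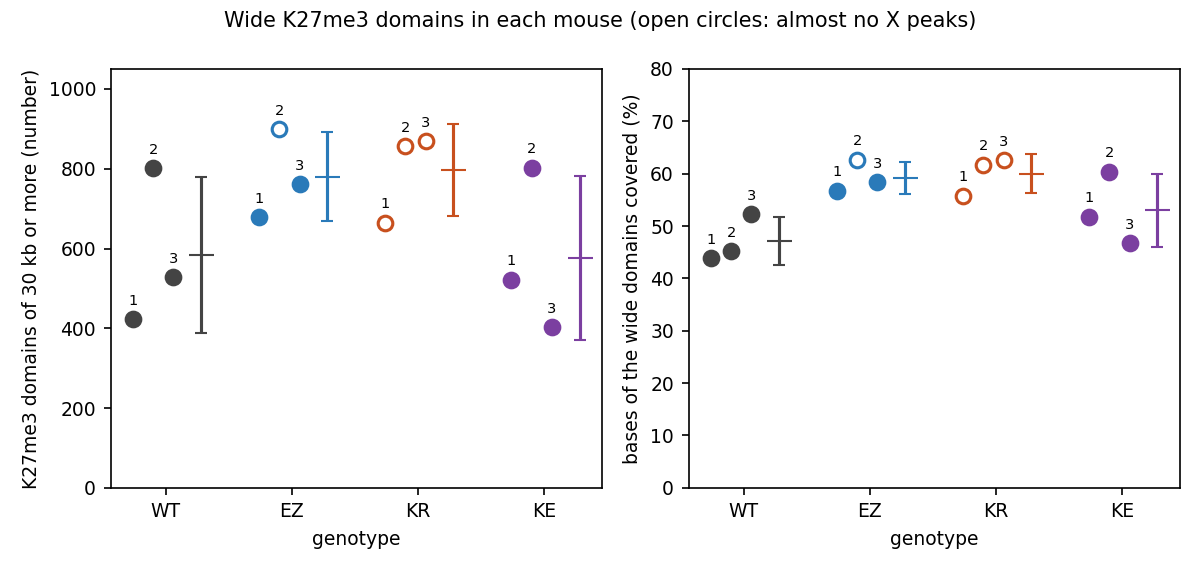
Number of K27me3 domains of 30 kb or more in each mouse (left) and share of the bases of the 2358 wide domains under a K27me3 peak (right), by genotype, with 1 circle per mouse numbered as in the labels and the mean ± SD of 3 mice beside them. Open circles are the 4 lists with 35 or fewer X peaks. WT1 and WT2 had 423 and 801 domains, and the 3 WT mice had covered shares of 43.8% to 52.3%, below all EZ and KR mice, while KE1 (51.8%) and KE3 (46.7%) lay between WT2 and WT3.

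By mouse, the number of domains of 30 kb or more was 423, 801 and 528 in WT, 678, 899 and 761 in EZ, 664, 856 and 869 in KR and 522, 802 and 402 in KE. The widest single domain of any mouse measured 107 kb in WT1 and 386 kb in EZ2. The ranges of all 4 genotypes overlapped. K27me3 peaks covered 43.8%, 45.2% and 52.3% of the bases of the wide domains in the WT mice. In EZ mice they covered 56.7%, 62.6% and 58.4%, in KR mice 55.7%, 61.7% and 62.6%, and in KE mice 51.8%, 60.4% and 46.7%. EZ and KR mice all lay above the WT mice, and KE mice lay on both sides of the highest WT value. Over all autosomes EZ and KR mice also lay above WT, with 6.22% to 7.34% under K27me3 in WT and 7.58% to 9.41% in EZ. KR mice had 7.41% to 9.35% there and KE mice 5.69% to 7.79%. Of each mouse's autosomal K27me3, the wide domains held 33.6% to 38.8% in WT, 35.5% to 41.0% in EZ and 35.8% to 40.2% in KR. In KE mice they held 41.4% to 44.2%, more than in any mouse of the other genotypes. Mean cover of the wide domains was 47.1% ± 4.54 (SD, n = 3) in WT, 59.2% ± 3.03 in EZ, 60.0% ± 3.72 in KR and 53.0% ± 6.91 in KE. The EZ and KE means, with the acinar EZH2 deletion, were not below that of WT, and the KE mean was below that of KR. These same lists chose the domains, so an effect of the deletion cannot be read from these means. In whole tissue, fewer cells of a type that carries the mark and less of the mark per cell cannot be told apart.

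By presence, 483 wide domains were found in WT mice alone, 264 in EZ, 271 in KR and 105 in KE, and 357 of the 483 were those of WT2 alone. Most were of 1 mouse, since 5, 25, 30 and 2 of them were found in 2 or more mice of that genotype. Domains in all 3 mice of a genotype numbered 62 in WT, 269 in EZ, 253 in KR and 200 in KE, and those in all 3 mice of 1 genotype and in no mouse of the others numbered 0, 1, 1 and 0. Leaving out WT1 raised the number of domains present in every remaining mouse from 47 to 84, because 37 wide domains were present in all mice but WT1.

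Of the 47 domains found in all 12 mice, 34 held a protein-coding start and 13 held none. The widest, chr11:73328119-73838397 (510 kb, 17 protein-coding starts), held Aspa, which encodes the aspartoacylase of N-acetylaspartate breakdown, Spata22, a meiosis gene, and a cluster of olfactory receptors that includes Olfr20 and Olfr382. Its covered share was 82.2%, 54.9% and 90.6% in WT, 94.7%, 95.0% and 95.7% in EZ, 82.9%, 96.5% and 93.1% in KR and 91.3%, 96.7% and 90.7% in KE. WT2 was the lowest of all mice here, and the widest joined domain of that mouse there was 38.3 kb against 386 kb in EZ2. Another receptor cluster lay just beyond it at chr11:73840862-74129731 (289 kb), and one that also holds the cytochrome P450 gene Cyp2e1 lay at chr7:140378603-140775576 (397 kb).

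Hox genes encode the factors that set position along the body axis, and all 39 of them lay in 4 wide domains. The Hoxc domain, chr15:102739415-103151908 (412 kb), was covered to 44.6%, 98.3% and 69.9% in WT, 66.5%, 80.8% and 85.1% in EZ, 93.1%, 76.2% and 82.1% in KR and 83.9%, 76.0% and 67.3% in KE. Here WT1 was the lowest and WT2 the highest of all 12 mice, the reverse of their order at the widest olfactory cluster. The Hoxb domain, chr11:96141913-96429099 (287 kb), showed the same extremes, 36.1% in WT1 and 97.1% in WT2 with the other 10 mice between 74.5% and 92.6%. The Hoxa domain, chr6:51999913-52366841 (367 kb), and the Hoxd domain, chr2:74580514-74826244 (246 kb), reached 30 kb in 11 mice each, all but WT1.

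Other developmental regulators of the domains in all 12 mice were Nkx2-1, a thyroid and lung factor, with Nkx2-9 and Pax9 (263 kb), Zic4 and Zic1, cerebellar factors (148 kb), Six6 (136 kb), Twist1, a mesenchymal factor, with Ferd3l (93.0 kb), Tbx18 (100 kb), Tfap2b (74.4 kb), Nkx3-2 (71.2 kb), Alx1 (58.3 kb) and Onecut2 (159 kb). Dkk1, a Wnt inhibitor (77.6 kb), the chemokine genes Ccl12 and Ccl8 (99.4 kb), Lin28b (111 kb) and 10 starts of the protocadherin alpha cluster and its neighbours (142 kb) were also among them. The Twist1 domain was covered to between 77.3% in KE3 and 99.8% in WT2.

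The cell cycle inhibitors Cdkn2a and Cdkn2b, whose products restrain proliferation, shared a domain of 96.1 kb at chr4:89221055-89317201 that was present in all 12 mice. Its cover was 66.7%, 84.4% and 67.6% in WT, 65.9%, 82.8% and 91.9% in EZ, 83.3%, 78.8% and 79.2% in KR and 87.7%, 90.9% and 74.7% in KE. The values of the genotypes overlapped. Cdkn2a and Cdkn2b were 2 of 8 listed immune and cell cycle genes, and since they form 1 locus the count says nothing of the list. The text of the study names Cdkn2a and not Cdkn2b. Both gene starts had K4me3 within 3 kb in all 12 mice, and K27me3 lay over the start itself in 8 mice for Cdkn2a and in 5 for Cdkn2b.

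**Figure D2:**
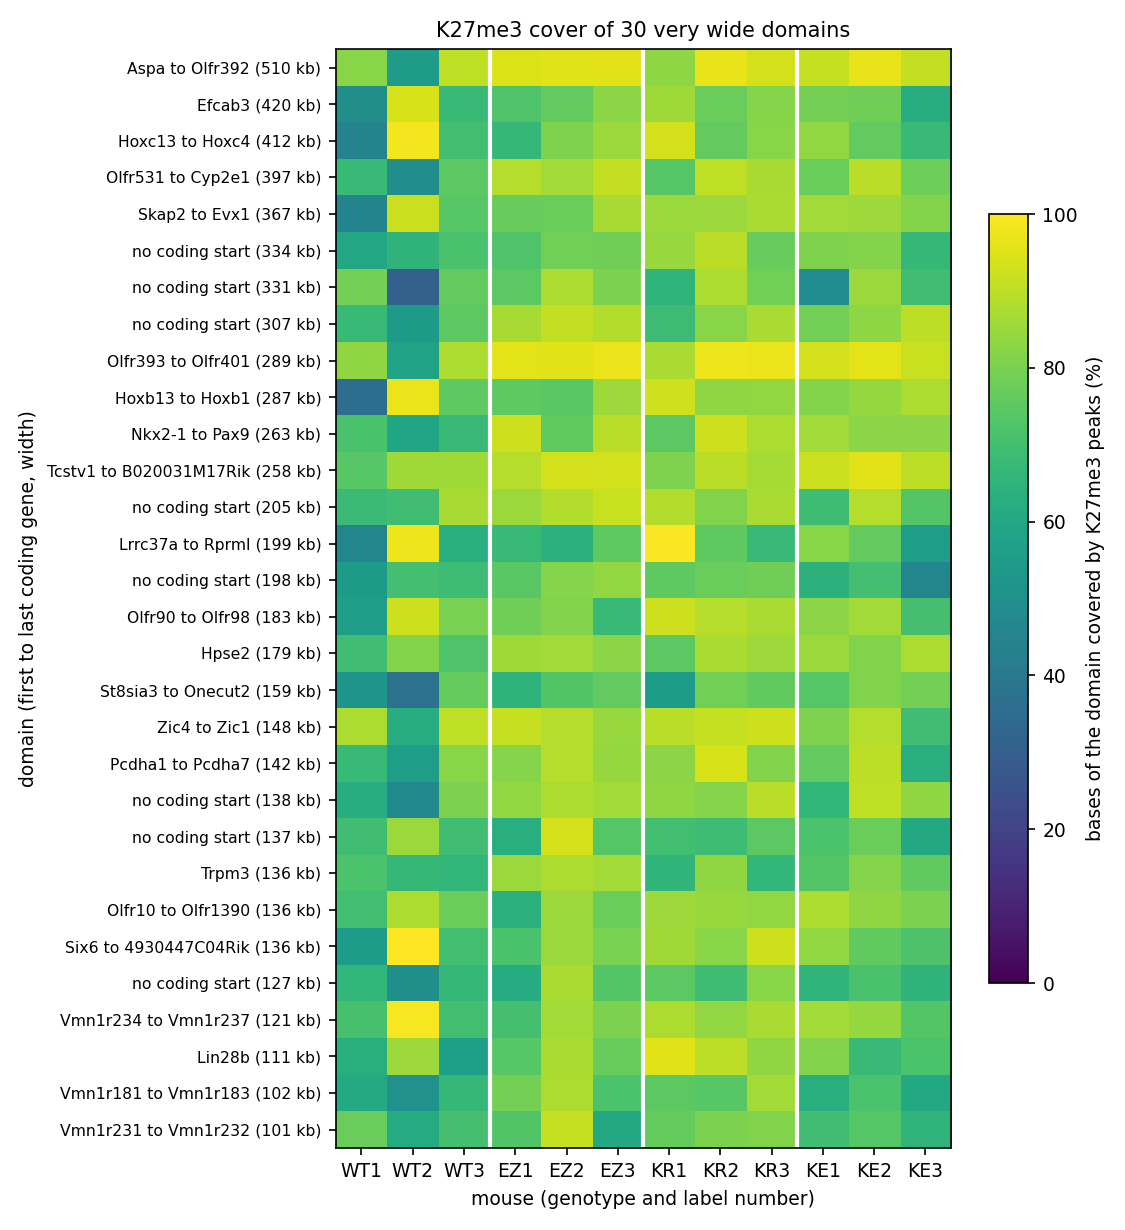
Share of each domain's bases under K27me3 peaks (colour, 0 to 100%) in each of 12 mice (columns) for 30 wide domains (rows), the 10 widest and then the widest of those present in all 12 mice, named by their first and last protein-coding gene without Gm symbols. WT2 is low at the widest olfactory cluster (54.9%) but not at every one (87.8% at Olfr10 to Olfr1390), and is high at the Hox clusters (98.3% at Hoxc), where WT1 is low (44.6% at Hoxc).

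The other 13 domains of all 12 mice held no protein-coding start. The widest, chr19:9145308-9479162 (334 kb), was covered to 59.8%, 64.9% and 71.4% in WT, 72.5%, 78.7% and 78.3% in EZ, 84.5%, 89.7% and 76.6% in KR and 80.8%, 81.6% and 66.4% in KE. All 3 KR mice and all 3 EZ mice lay above all WT mice there. At the next, chr10:98383238-98690173 (307 kb), cover was 67.5%, 54.6% and 74.8% in WT, 87.1%, 90.9% and 88.5% in EZ, 68.5%, 82.1% and 87.3% in KR and 78.8%, 83.1% and 90.2% in KE. EZ and KE mice lay above all WT mice, and KR1 did not. The domain chr13:119879809-120138120 (258 kb), with Tcstv1 and 4 further starts, belongs to a family of near-identical copies in which short reads cannot be placed with certainty.

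Over all 2358 wide domains, 852 (36.1%) held the start of at least 1 protein-coding gene, 612 of them exactly 1 and 33 of them 5 or more. They held 1369 of the 20807 autosomal protein-coding starts, 6.58%, or 10.7 per Mb against 8.57 per Mb in the rest of the autosomes. No annotated gene of any kind started in 985 domains (41.8%). The share of a list that lay in a wide domain is read below against this 6.58% as a description, since the lists were chosen knowing earlier results.

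**Figure D3:**
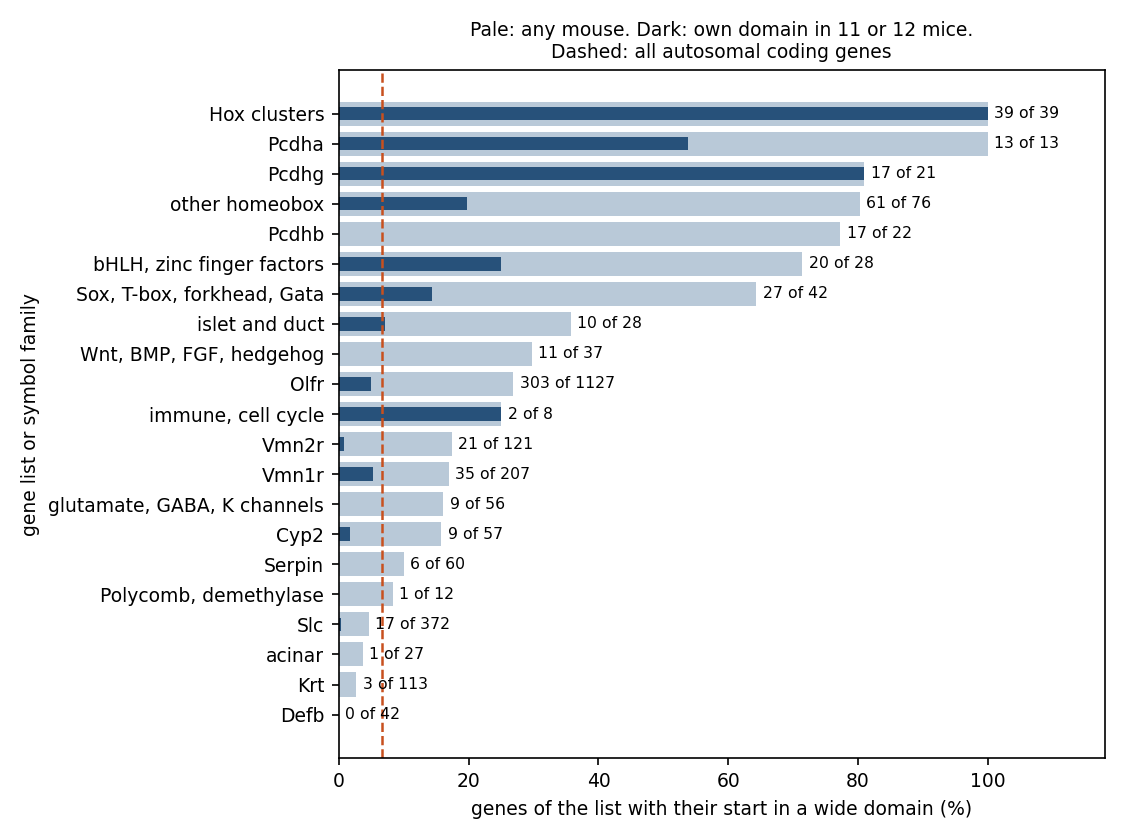
Share of the genes of each list or symbol family whose start lay in a wide domain (pale bars, with the count of genes), and in a domain that reached 30 kb in 11 or 12 mice (dark bars), on a linear axis in percent. The dashed line is the 6.58% of all autosomal protein-coding genes. Hox and Pcdha genes lay in wide domains without exception, and the acinar, Slc, Krt and Defb genes were below the line.

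Most listed transcription factors of development lay in wide domains. Besides the 39 Hox genes, 61 of 76 other homeobox genes, 27 of 42 Sox, T-box, forkhead and Gata factors, and 20 of 28 basic helix-loop-helix and zinc finger lineage factors started in a wide domain. Wnt, BMP, FGF and hedgehog signals numbered 11 of 37, and for 9 of these 11 the domain was of 1 mouse, which was WT2 for 8. Wnt1 and Wnt10b, for example, shared a domain of 33.2 kb covered throughout in WT2, to 45.6% in KR1, 15.1% in WT3 and 0% in the other 9 mice.

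Of 27 acinar genes, 1 (3.70%), Ptf1a, started in a wide domain, a share near the 6.58% of all genes, and that domain (chr2:19419592-19482823, 63.2 kb) was covered throughout in WT2, to 10.4% in KR1 and 0% in each of the other 10 mice. Of 28 islet and duct genes, 10 (35.7%) did. Pdx1, which directs pancreas formation and beta cell function, shared a 64.3-kb domain with the intestinal factor Cdx2 that was 30 kb wide in WT2 alone, with complete cover there, 59.4% in KR1 and 0% to 30.5% in the other 10. Neurod1, an endocrine factor, lay in a domain of 103 kb present in 5 mice, Nkx6-1, a beta cell factor, in one of 57.3 kb present in 8, and Sst, the somatostatin gene, in one of 64.7 kb present in 3. Onecut1 and Gata4, factors of the early pancreas, were covered to 98.4% and completely in WT2, to 33.8% and 62.6% in KR1 and to 0% in the other 10 mice, and the Gata4 domain reached 30 kb in KR1 too. Of 12 Polycomb and demethylase genes 1 (8.33%, near the 6.58% of all genes), Cbx8, a Polycomb repressive complex 1 subunit, lay in a wide domain, that of WT2 alone. The Cbx8 start itself was under K27me3 in no mouse and had K4me3 within 3 kb in all 12.

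Gene families of cell surface receptors made up another group. Of 1127 olfactory receptor genes (Olfr), 303 started in 107 wide domains, and 35 of 207 Vmn1r and 21 of 121 Vmn2r vomeronasal receptor genes did so. Clustered protocadherins, which give neurons their surface identity, were nearly all inside, with 13 of 13 Pcdha, 17 of 22 Pcdhb and 17 of 21 Pcdhg genes. Near-identical copies within these families limit the placement of reads. Ion channel genes for glutamate, GABA and potassium numbered 9 of 56, Cyp2 genes 9 of 57, Serpin genes 6 of 60, Slc transporters 17 of 372, keratins 3 of 113 and beta-defensins (Defb) 0 of 42.

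CpG content followed these classes. The 111 domains with a gene of the 5 developmental lists (Hox, other homeobox, Sox to Gata, helix-loop-helix and zinc finger, signals) had a median of 16.0 CpGs per kb and 45.7% GC. The 147 with an olfactory or vomeronasal receptor had 5.16 CpGs per kb, the 595 with another protein-coding start had 8.79, and the 1506 without one had 5.99. The median of all 79868 autosomal 30-kb windows was 7.70, so that developmental domains lay above it and receptor and gene-poor domains below it. Repeats made up a median of 23.4% of the developmental domains, 48.9% of the receptor domains and 30.7% of the windows. At gene starts the same division held, with a median of 14 CpGs in the 250 bases before the 158 developmental list genes in wide domains, 1 before the 303 Olfr genes and 8 over all genes.

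The domains were spread unevenly over chromosomes. They took up 19.7% of chromosome 19, where 155 lay, 30 of them of at least 100 kb, and 9.40% of chromosome 11. The other 17 autosomes had between 2.98% and 6.80%. On chromosome 19, 32.9% of the domains held a protein-coding start, against 36.1% over all chromosomes.

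The kinds of domain were not marked alike in every mouse, and the largest contrast was between 2 control mice. At the 111 developmental domains, cover was 34.5%, 83.9% and 56.6% in WT1, WT2 and WT3, 63.0%, 64.1% and 71.8% in EZ, 79.1%, 67.6% and 71.5% in KR and 74.7%, 69.9% and 63.6% in KE. WT1 and WT2 were thus the lowest and highest of the 12, and 12, 100 and 41 of the 111 domains reached 30 kb in the 3 WT mice. At the 1506 domains without a protein-coding start, cover was 46.5%, 32.7% and 52.4% in WT, 57.0%, 63.7% and 57.5% in EZ, 49.6%, 62.1% and 61.9% in KR and 46.9%, 60.4% and 44.8% in KE. WT2 was the lowest of the 12 at these, so the mouse with the fullest developmental domains had the emptiest gene-poor ones. Of the 111 developmental domains, 18 reached 30 kb in WT2 alone, so the high cover of WT2 there is in part built into the choice. Cover without these 18 was not computed. The 3 EZ mice lay above the 3 WT mice at gene-poor domains and above WT1 and WT3, but not WT2, at developmental ones. Because the WT mean at developmental domains, 58.3% ± 24.8 (SD, n = 3), spans such a range, differences of the other genotypes from WT there are smaller than the spread between control mice.

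**Figure D4:**
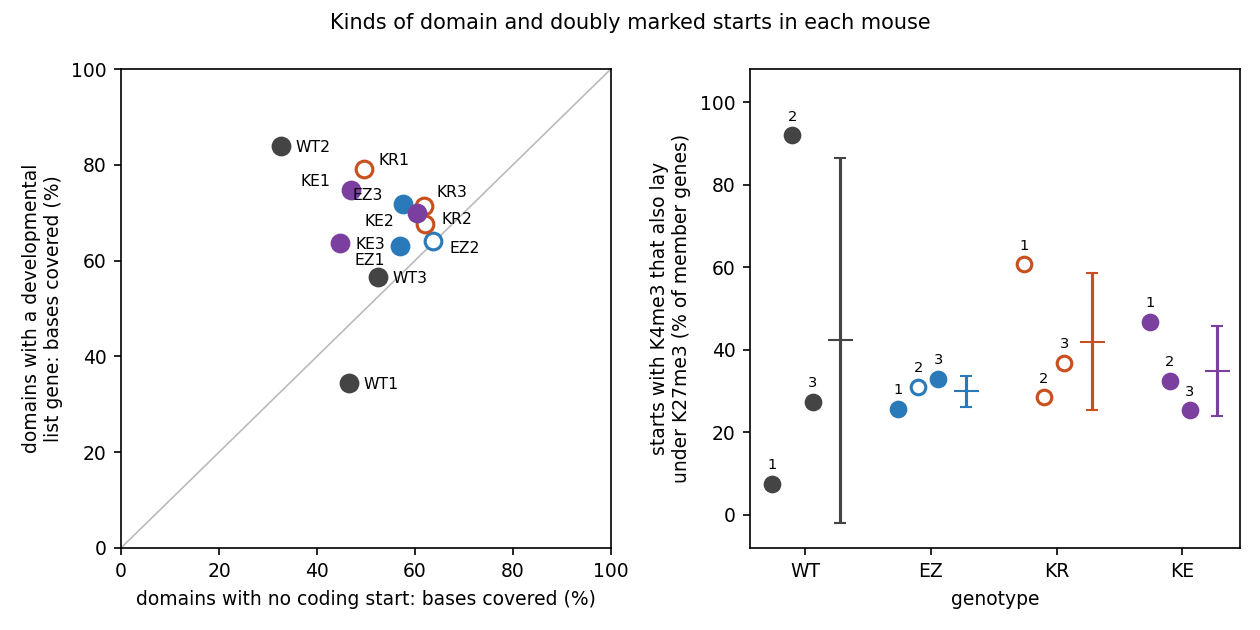
Left, share of bases under K27me3 in the 111 domains with a developmental list gene (vertical axis, %) against that in the 1506 domains without a protein-coding start (horizontal axis, %), with 1 circle per mouse and the diagonal of equality. Right, share of genes in wide domains with K4me3 within 3 kb of the start whose start also lay under K27me3, with mean ± SD of 3 mice. Open circles have 35 or fewer X peaks. WT2 stands at 83.9% and 32.7% on the left and 92.0% on the right, and WT1 at 34.5% and 46.5% and at 7.48%.

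The comparison of genotypes was tested on domains that the compared mice had not chosen. For each contrast, the 30-kb rule was applied only to the mice of the other 2 genotypes, and the share of those domains under K27me3 was compared by an exact two-sided permutation test, adjusted by Benjamini-Hochberg over the 4 contrasts. With 3 mice against 3, p cannot fall below 0.1. KR and WT mice, on 1564 domains of EZ and KE mice, had 59.7%, 70.3% and 70.4% against 50.9%, 39.7% and 61.7%, or 66.8% ± 6.14 against 50.8% ± 10.99 (SD, n = 3 each). Their ranges overlapped, and the difference of 16.0 points did not pass the threshold, which this design cannot reach (exact permutation p = 0.2, adjusted p = 0.267). Without WT2 it was 10.5 points, and as a ratio to the share of all autosomes under K27me3 in the same mouse the difference was 0.417 (exact permutation, adjusted p = 0.6). On that ratio scale EZ minus WT was 0.916 and KE minus WT 1.93 (exact permutation, adjusted p = 0.267 for both), and with equal numbers of peaks KR, EZ and KE minus WT were 14.3, 15.4 and 11.4 points. EZ mice had 65.5%, 69.7% and 67.4% on 1633 domains of KR and KE mice against 48.7%, 43.4% and 60.3% in WT, a difference of 16.8 points. All 3 EZ mice lay above all 3 WT mice, which gives the smallest p the design allows (exact permutation p = 0.1, adjusted p = 0.267).

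KE mice had 57.2%, 67.6% and 53.6% on 1807 domains of EZ and KR mice against 49.0%, 39.8% and 59.0% in WT, a difference of 10.2 points (exact permutation p = 0.3, adjusted p = 0.3) that was 5.47 points without WT2 and 6.14 without KE2. On 1995 domains of WT and EZ mice, KE mice had 54.4%, 60.6% and 48.2% against 57.9%, 61.3% and 62.1% in KR mice. The KE mean fell by 6.04 points, with 1 KE value inside the KR range (exact permutation p = 0.2, adjusted p = 0.267). The difference was -2.95 points without KE3, -9.15 without KE2 and -3.57 with equal numbers of peaks. When each mouse's share was divided by the share of all autosomes under K27me3 in that mouse, the direction turned and the ratio was 1.24 higher in KE (exact permutation, adjusted p = 0.267). No contrast passed the adjusted threshold, and whether the absence of X peaks in the KR lists plays a part was not tested.

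Over all wide domains, the mean cover of KR minus WT had a median of 13.5 points and was above 0 for 1823 (77.3%). Without WT2 in the mean it was above 0 for 1701 (72.1%). KE minus KR had a median of -7.31 points and was above 0 for 669 (28.4%). These same lists chose the domains, and the domains are not separate observations, so the counts are descriptions. Over all autosomes, mean K27me3 cover was also higher in KR (8.61%) than in WT (6.85%) and KE (6.58%). The largest KR excess, at chr1:111892073-111922343 (30.3 kb, no protein-coding start), was 64.7%, 47.8% and 86.9% in KR and 0% in each of the other 9 mice. It reached 30 kb in KR3 alone, so it entered the set through a KR mouse and its KR excess is in part built into the choice. Other domains of these rankings can likewise enter the set through the group in which they are high. At chr9:105011276-105051315 (40.0 kb), cover was 68.1%, 92.7% and 78.9% in KR and 15.7%, 0% and 24.7% in WT, while EZ mice had 74.9%, 45.9% and 52.2% and KE mice 48.1%, 63.8% and 67.6%. The WT mice were below all 9 others there.

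In the opposite direction, chr16:27796744-27836733 (40.0 kb) was covered to 85.5%, 0% and 70.0% in WT and 0%, 12.5% and 0% in KR. WT2, EZ3 and KE3 were at 0% too, so the split did not follow genotype. Between KE and KR mice, the largest KE deficit was at chr1:83773360-83807581 (34.2 kb), with 68.5%, 69.0% and 97.3% in KR and 0%, 0% and 14.6% in KE. The largest KE excess, at chr7:25986382-26018729 (32.3 kb), was 30.9%, 80.6% and 58.5% in KE and 0% in all 3 KR mice. WT1 and WT3 had 72.8% and 58.9% at that site and WT2 had 0%. Of the domains that led these rankings, that of Gm4767 (chr10:81776225-81826573) had cover of 86.9% in KR1 and 0% in KR2 and KR3, so KR mice did not share the state.

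K4me3, which the choice of domains did not use, was sparse inside them. Averaged over 12 mice, K4me3 peaks covered 6.73 ± 0.651 bases per kb of the wide domains (SD, n = 12) against 18.0 ± 1.57 per kb of the rest of the autosomes. It was lower in the domains in 12 of 12 mice, at 0.347 to 0.422 of the level outside (exact sign-flip permutation test, p = 0.000488, the smallest that 12 mice can give). A K4me3 peak lay in 280 domains (11.9%) in all 12 mice, against 15.0% of 30-kb windows, although the domains are wider than the windows. Of the genes that started in a wide domain, 23.1% ± 1.76 had K4me3 within 3 kb of the start, against 63.0% ± 0.750 of other protein-coding genes (SD, n = 12, exact sign-flip permutation p = 0.000488, lower in 12 of 12 mice).

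**Figure D5:**
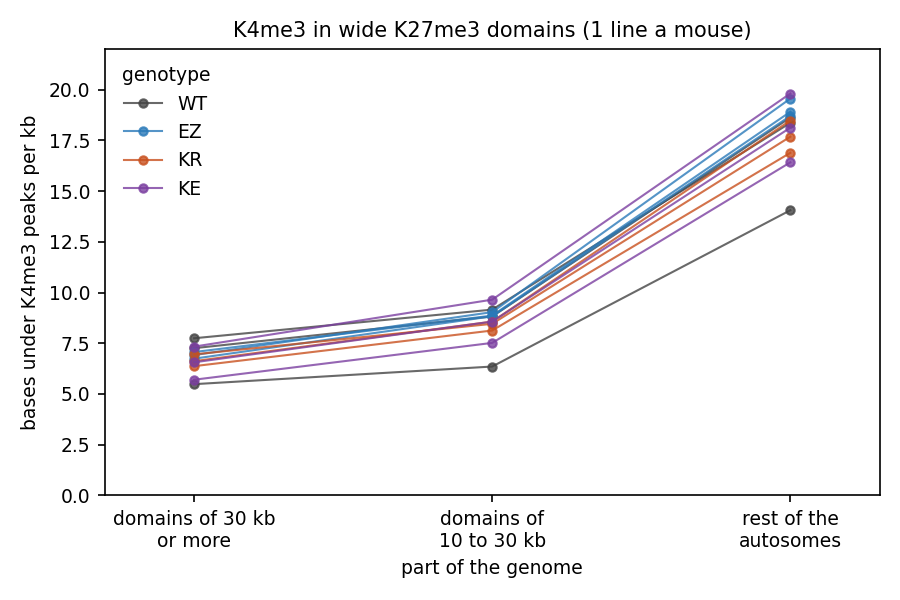
Bases under K4me3 peaks per kb of sequence (vertical axis, linear) in wide domains, in narrower domains of 10 to 30 kb and in the rest of the autosomes outside the wide domains, with 1 line per mouse coloured by genotype. Every line rises to the right, from 5.48 to 7.75 in wide domains to 14.1 to 19.8 in the rest.

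Against the 11963 K27me3 domains of 10 to 30 kb, the part of the genome most like them, wide domains had less K4me3, 6.73 against 8.497 ± 0.859 bases per kb (exact sign-flip permutation p = 0.000488, lower in 12 of 12 mice). This difference depended on 1 list and on the joining of peaks. With WT2 left out of the definition and the comparison, wide domains had 0.893 bases per kb more than narrower ones (exact permutation p = 0.000977, the smallest that 11 mice can give), and with a gap of 1 kb in place of 3 kb they had 0.794 more (exact permutation p = 0.000488). The difference grew to -3.26 with a gap of 5 kb and to -3.28 with domains of at least 2 mice. The difference from the rest of the autosomes kept its direction and stayed below the threshold under all 18 alternatives tried.

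By genotype, K4me3 in the wide domains covered 6.83 ± 1.19 bases per kb in WT, 6.91 ± 0.163 in EZ, 6.65 ± 0.292 in KR and 6.53 ± 0.816 in KE (SD, n = 3 mice each). The 4 contrasts had exact permutation p from 0.8 to 1 and adjusted p of 1, and differences from -0.297 to 0.0792 were smaller than the spread between mice. Relative to the K4me3 level of the same mouse over the rest of the autosomes, the domains had 0.422, 0.390 and 0.389 in WT, 0.354, 0.374 and 0.360 in EZ, 0.393, 0.358 and 0.377 in KR and 0.347, 0.370 and 0.362 in KE. On this scale all EZ and KE mice lay below all WT mice, and KR mice overlapped with them. Divided by the level over all autosomes, EZ minus WT was -0.0384 and KE minus WT -0.0412 (exact permutation, adjusted p = 0.2 for both), which did not pass the threshold. The EZH2 deletion effect did not differ detectably between backgrounds, with -0.115 for KE minus KR and 0.0792 for EZ minus WT (exact permutation of labels within each contrast, p = 0.81).

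The overlap of the marks at gene starts differed with how many mice had K4me3 there. Of the 1369 genes, 203 (14.8%) had K4me3 within 3 kb in all 12 mice, against 55.1% of all protein-coding genes, and these had K27me3 over the start in a median of 2 mice. For 89 of the 203 it was 0 or 1 mouse, and the domains of the 203 reached 30 kb in a median of 1 mouse. The 225 genes with K4me3 in 1 to 11 mice and the 941 with K4me3 in no mouse both had K27me3 over the start in a median of 8 mice, so the low median was seen for the genes with K4me3 in every mouse, many of which lay in domains of WT2 alone. Of the 941, 145 had it in all 12, as had 224 of all 20807 genes (1.08%). Foxd2, for instance, lay in a domain of 64.2 kb present in 7 mice with K27me3 over the start in 1 mouse, whereas the starts of Six6, Hoxd13 and Olfr20 were under K27me3 in 12. The 5 of the 203 with both marks at the start in all 12 mice were Hoxc6, Zic4, the homeobox gene Dbx1, Tchh, which encodes the hair protein trichohyalin, and Soga3, of which Dbx1, Tchh and Soga3 were named after their values were seen. The 203 genes with K4me3 in all mice had a median of 15 CpGs in the 250 bases before the start, and the 941 without it had 2.

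The share of K4me3-marked starts that lay under K27me3 in the same genotype and label number separated the control mice. Among genes in wide domains it was 7.48%, 92.0% and 27.3% in WT, 25.6%, 31.0% and 33.0% in EZ, 60.7%, 28.4% and 36.9% in KR and 46.8%, 32.4% and 25.3% in KE. WT2 and WT1 were again the extremes, with KR1 and KE1 next after WT2. Of the domains of 30 kb or more that each of these mice had itself, 5.44% held a K4me3 peak in WT1, 19.5% in KE1, 25.2% in KR1 and 36.3% in WT2. Over all 2358 wide domains the order was different, with 19.3% in WT1, 15.7% in KE1, 17.9% in KR1 and 15.0% in WT2. The mean over mice of the share of marked starts was 37.2%, and 55.3% with WT2 left out of the choice of domains and of the mean. K27me3 lists were part of the choice of domains, and 271 of the 1368 gene symbols in wide domains lay in domains of WT2 alone. The high share of WT2 and the lower shares of the other mice are thus in part built into the choice. These shares are descriptions, and the depth of these libraries is unknown.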

How the data were processed

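ChIP-seq peak lists for K27me3 and K4me3 of 12 mice were used, 3 per genotype. The authors checked reads with FastQC, aligned them to mm10 with Bowtie2 and called peaks per mouse with HOMER in histone mode against a local background and the input (versions not given in the sources used here). The deposited lists hold positions and a score, which is 1 for every peak, so neither counts nor signal could be used. K27me3 peaks were 5001 bp or wider and K4me3 peaks 501 bp or wider. The 12 input samples have no list here.

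Autosomal K27me3 peaks with gaps under 3 kb were joined per mouse, domains of 30 kb or more were kept and their union taken. Genes are those of GENCODE vM21, by the position of their start. Base composition came from GRCm38.p6, and gaps were left out of lengths. Exact permutation tests, two-sided, were run on 1 value per mouse, with sign flips where 2 kinds of region were compared within mice, in Python 3.11.15 with numpy 2.4.6 and scipy 1.17.1. Functions were tested on simulated lists with planted domains. The domains and gene lists were chosen with earlier results of these data known. Domains named are the 10 widest, the 10 widest of those in all 12 mice, the 5 largest and 5 smallest in mean cover for KR minus WT and KE minus KR, and those that hold a listed gene. Other domains of all 12 mice were named after their values were seen. Alternatives were gaps of 1 and 5 kb, widths of 20 and 50 kb, presence in at least 2 mice, each mouse left out, medians, ranks, a replicate block, rescaled cover and equal numbers of peaks. Nothing in the labels ties mice to litters or days, so p-values measure the spread between these mice. One allele of the KR and KE mice and 1 gene are not reported here.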

Additional observations from a re-analysis of the deposited data

How the results depend on the processing

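Of 364 alternatives over 19 results, 326 were counted as unchanged, 21 moved a value or count and 17 turned a direction. For a tested difference, unchanged meant the same direction and the same side of the threshold. No contrast between genotypes could pass the threshold with so few mice, so for these only the direction could change. Values without a test could shift and still count as unchanged. The 1369 genes, for example, became 989 with a 1-kb gap and 960 with at least 2 mice. The number of wide domains, 2358, became 1493 with a 1-kb gap, 5191 at 20 kb, 701 at 50 kb and 1297 with at least 2 mice, and 2014 to 2352 with 1 mouse left out. The mean number of domains per mouse, 684, became 392 with a 1-kb gap, 1678 at 20 kb and 178 at 50 kb. Mean cover per mouse, 54.8%, became 61.7% with a 1-kb gap, 49.4% with 5 kb, 49.3% at 20 kb, 62.7% at 50 kb and 61.6% with at least 2 mice, and 54.9% to 61.0% with 1 mouse left out, the highest without WT2. The 1369 genes became 2089 at 20 kb, 691 at 50 kb and 3173 with all annotated genes, and 1061 to 1367 with 1 mouse left out.

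With 1 mouse left out, the differences in cover ran from 10.5 to 21.5 points for KR minus WT, 5.47 to 15.1 for KE minus WT, -9.15 to -2.95 for KE minus KR and 13.1 to 21.5 for EZ minus WT. Divided by the autosomal share, the KE minus KR difference in cover became 1.24 (a difference of ratios). K4me3 against domains of 10 to 30 kb became 0.794 with a 1-kb gap, and -1.92 to 0.893 bases per kb with 1 mouse left out, positive without WT2. The K4me3 contrasts in bases per kb changed sign with 1 mouse left out. KR minus WT ran from -0.577 to 0.284 (0.284 without WT1, 0.0324 without WT3), KE minus WT from -0.880 to 0.164 (0.164 without WT1, 0.109 without KE1), KE minus KR from -0.535 to 0.300 (0.0310 without KR1, 0.300 without KE1) and EZ minus WT from -0.676 to 0.553 (lowest without WT2). EZ minus WT also became -0.213 at 50 kb, -0.477 with at least 2 mice, -0.340 by medians, -1.0 in mean rank, -0.0142 with K4me3 peaks of 1 kb or more, -0.0384 as a ratio to the autosomal level (exact permutation, adjusted p = 0.2) and -0.390 with equal numbers of peaks. The cause of these changes was not tested.

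Nothing in the labels says that a number pairs mice. Correlations of deviations of same-numbered mice ran from -0.564 to 0.455 over 12 pairs, with 3 over 0.1, so no contrast had every pair over 0.1. KE with KR came nearest, with 0.455, 0.316 and 0.0889, each the best match of its KE mouse. With a replicate block, KE minus KR was -6.04 points and KR minus WT 16.0 points (exact permutation, adjusted p = 0.333 for both), and no call changed. Alternatives added after seeing the data are included. Depth is unknown, and with 3 mice against 3 no contrast could pass the threshold.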
